A study of Mus musculus with 26 samples.

Results

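The comparison described here set blood stem cells against the progenitors they give rise to. It used the 3 arrays of the HSC GFP- gate, out of 26 in the series, and the mean of the 7 other group means, with 1 coefficient per group in a linear model. All cells were sorted from the bone marrow of mice 8 to 15 weeks old with the genotype Gata1-EGFP Tg/+, in which enhanced green fluorescent protein reports Gata1, so the reporter allele was shared by every group. HSC GFP- cells were lineage-negative, cKit+ and Sca1+ with CD150 present and without Flt3 or the reporter signal. The 4 LMPP arrays came from reporter-negative cells of the same cKit+ Sca1+ fraction, without CD150 and with high Flt3. The 3 CLP arrays came from lineage- and B220-negative cells with low Sca1 and cKit, Flt3 and the IL-7 receptor. The other groups lacked Sca1 and CD41. PreGM cells lacked CD16/32 (FcgRII/III), CD150 and CD105 and were split by the reporter into PreGM GFP- and PreGM GFP+, with 3 arrays each. GMP cells carried FcgRII/III and were split likewise, with 4 GMP GFP- and 3 GMP GFP+ arrays. PreMegE, with 3 arrays, lacked FcgRII/III and CD105 and carried CD150. The labels state no reporter gate for CLP or PreMegE, and do not say whether the arrays of a group came from separate animals. Adjusted p-values therefore rest on the variation among these arrays, part of which may be technical.

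Haematopoietic stem cells are rare marrow cells that can renew themselves and supply every blood lineage for life. In adult mice most of them divide seldom and rest in contact with vessels and stroma, and they are known for transcription factors such as Hlf, Mecom and Meis1, for surface proteins such as CD150, EPCR and Tie2, and for low output of lineage genes. Their progeny lose these features in steps while they enter rapid division and switch on the genes of lymphoid, granulocyte, monocyte, erythroid or megakaryocyte cells. In bulk samples such as these, fewer cells of a type and less RNA per cell cannot be told apart.

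Signals are log2 values, so a difference of 1 is a 2-fold ratio of signal. Each difference is HSC GFP- minus the mean of the 7 progenitor group means, with its standard error (SE; n = 3 HSC GFP- arrays and 23 others). The median of all values was 6.61, and a mean under it was not shown to exceed background. The array medians lay between 6.42 and 6.70. HSC GFP- arrays correlated with each other at 0.958 to 0.980 over genes and with the arrays of other groups at 0.925 to 0.972, so the 2 ranges overlap. Array 1 of HSC GFP- had the widest residuals of the 3, with an SD of 0.287. The mean of the Y-linked genes was 6.15, 7.66 and 7.07 in the HSC GFP- arrays, and 0 of the 4 sex-linked genes checked were called, with 0 at an unadjusted p under 0.05 (limma).

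The label was checked with Hlf, Slamf1 and Tek. Hlf, a basic leucine zipper factor of stem cell maintenance, read 11.50, 11.20 and 11.14 in HSC GFP- arrays, against a lowest of 7.16, a median of 7.82 and a highest of 10.69 over the other 23 arrays. All 3 stem cell arrays lay above every other array, and the nearest were those of LMPP. Slamf1, the gene of the gate marker CD150, read 7.38, 6.87 and 7.21 in HSC GFP- arrays, against a lowest of 4.57, a median of 5.07 and a highest of 7.79 elsewhere. Tek, which encodes the angiopoietin receptor Tie2, read 7.46, 7.73 and 6.88 in HSC GFP- arrays, against a lowest of 5.16, a median of 5.52 and a highest of 7.48 elsewhere. Both overlapped with PreMegE, the other gate that requires CD150, and Slamf1 averaged 7.15 in HSC GFP- and 7.17 in PreMegE. Of the 3 marker genes, then, Hlf alone set the stem cell arrays apart from each of the others. Since the gates used CD150, Flt3, cKit and FcgRII/III, and some gates CD41, CD105 or the IL-7 receptor, the levels of Slamf1, Flt3, Kit, Fcgr3, Fcgr2b, Itga2b, Eng and Il7r, and that of Gata1, whose reporter was gated, are a check of the sort and not a finding. Of 30 measured markers of other cell types, 19 had a mean in HSC GFP- under the median of all values, 1 (Pf4) rose and 10 fell. Cd3g averaged 5.47, Cd79a 5.11, Adgre1 5.30, Kdr 5.94 and Elane 6.34 in HSC GFP-. Of those above the median, Mpo at 8.78, Flt3 at 8.18 and Itga2b at 7.92 were the highest, and Col1a1 and Cd3e, at 7.41 and 7.33, were level with the progenitor means of 7.40 and 7.31. Of 18 stroma and endothelium genes 0 were called by limma, and 2 had an unadjusted p under 0.05.

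**Figure D1:**
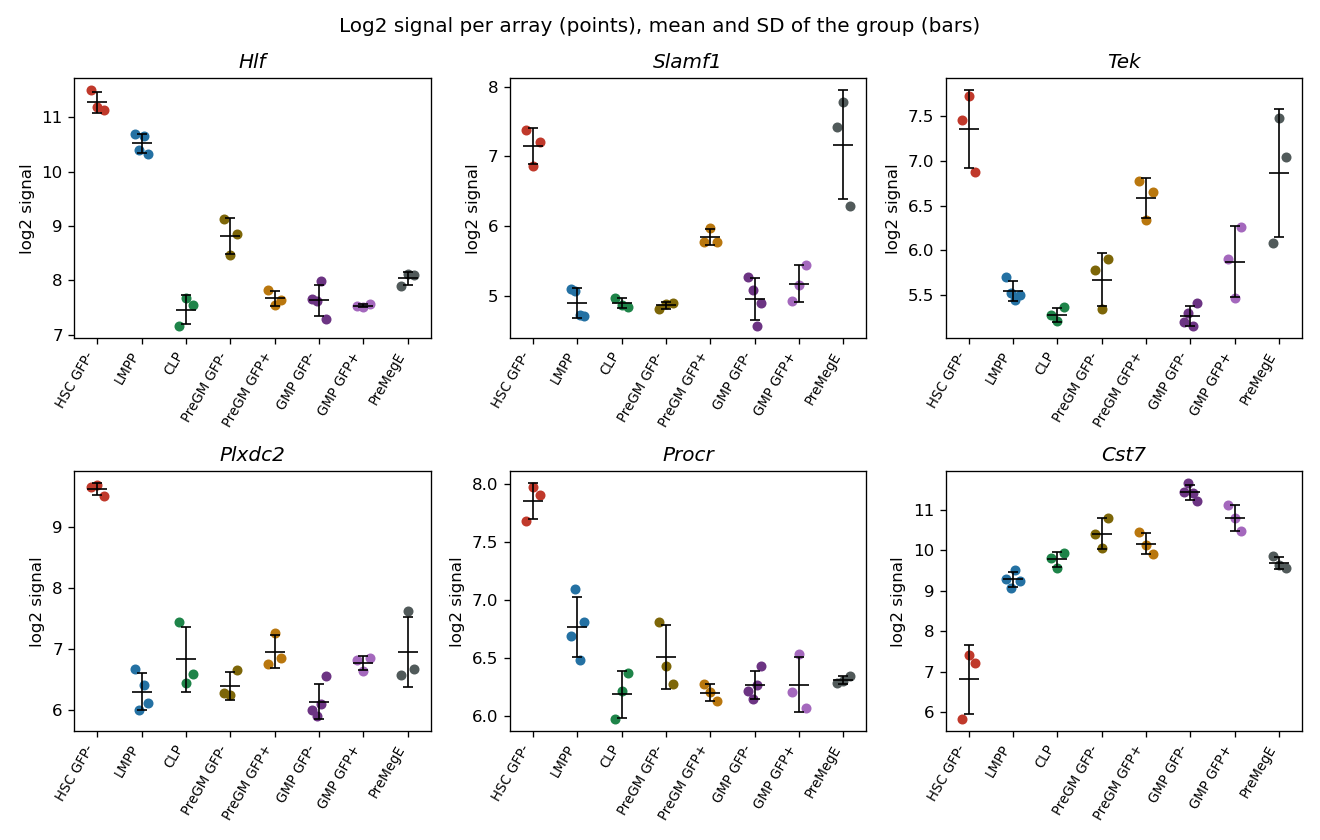
Log2 signal of 6 genes on each of the 26 arrays, by group, with HSC GFP- at the left. Points are arrays and bars give the group mean and SD. Hlf, Plxdc2 and Procr are above, and Cst7 below, all other arrays in HSC GFP-, while Slamf1 and Tek reach the same range in PreMegE.

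Stem cells differed from the progenitor mean at 1247 of 19938 genes at an adjusted p under 0.05 (limma, Benjamini-Hochberg). Of these, 697 were higher in HSC GFP- (3.5% of genes) and 550 were lower (2.76%). The counts of each list below are to be read against these shares. At least a 2-fold ratio was seen for 230 of the higher and 130 of the lower genes. All 3 HSC GFP- arrays lay above each of the other 23 arrays for 179 called genes (0.898% of genes tested) and below each of them for 66 (0.331%). Such genes are described here as without overlap. For 71 of the 179 genes the progenitor group with the highest mean was LMPP, and for 43 it was PreMegE. Among the 66 lower genes the group with the lowest mean was LMPP for 19 and PreMegE for 17. Median differences were 1.07 for the 179 genes and 0.90 in size for the 66.

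The gap between the groups varied widely. Plxdc2 had the widest gap above the other arrays, 1.88, and Cst7 the widest below, 1.68. At the edge of the no-overlap rule were Sgce, with a gap of 0.0008, and Npc2, with 0.004. Crispld1, Cysltr2 and Slc27a6 had differences of 2.54, 2.37 and 2.06 and were outside the rule by 1 LMPP array each. S100a8, S100a9 and Mpo, with -3.38, -3.26 and -2.95, were outside it by 1 array on the low side. Signal level also differed between the sets. The progenitor mean lay below the median of all values for 86 of the 179 higher genes, and the HSC GFP- mean did so for 11 of the 66 lower genes.

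**Figure D2:**
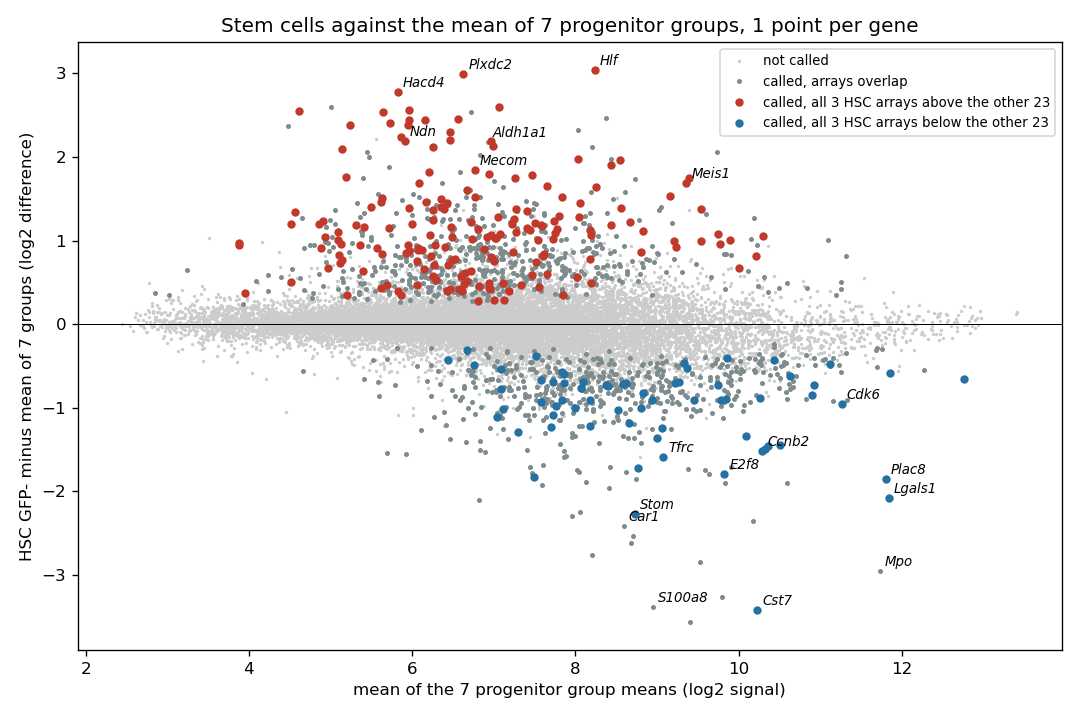
Difference between HSC GFP- and the mean of the 7 progenitor group means (log2, vertical axis) against that mean (log2 signal, horizontal axis), with 1 point per gene. Red points are the 179 and blue points the 66 called genes whose HSC GFP- arrays lie beyond all other arrays; Hlf, at 3.04, and Cst7, at -3.41, have the largest differences among them.

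Transcription factors known from stem cells were higher in HSC GFP-. Of 26 measured, 12 rose and 0 fell, with a median difference of 0.46, against 0.00 over all genes. The list score, the mean over its genes of the signal minus the gene's mean, was 0.59 to 0.60 on the HSC GFP- arrays and -0.41 to 0.19 on the others. Hlf had the largest rise of any gene without overlap, 3.04 ± 0.13 (SE; limma adjusted p = 1.21e-12). Mecom, a zinc finger regulator that stem cells need for their maintenance, read 7.79, 8.81 and 9.23 in HSC GFP-, against a lowest of 6.22, a median of 6.66 and a highest of 7.73 in the other arrays. Its difference was 1.84 ± 0.20 (adjusted p = 1.83e-06, limma), and its lowest stem cell array lay just above the highest LMPP array. Meis1, a homeodomain partner of HOX proteins, read 10.91, 11.11 and 11.11 in HSC GFP-, against a lowest of 7.12, a median of 9.55 and a highest of 10.49 elsewhere, a difference of 1.69 ± 0.19 without overlap (adjusted p = 3.08e-06, limma). Erg, an ETS factor, and Nfix, of the nuclear factor I family, each rose by 0.99, and neither overlapped with the other arrays. Ndn encodes necdin, an imprinted growth suppressor, and read 9.18, 7.21 and 7.91 in HSC GFP-, against a lowest of 5.39, a median of 5.88 and a highest of 6.39 in the others. Its difference was 2.19 ± 0.21, and array 1 was clearly the highest of the stem cell arrays.

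The remaining members of this list that rose overlapped with some progenitor arrays. Lmo2, a bridging subunit of the blood transcription factor complex, rose by 0.85, Zfp521 by 0.81, Gata3 by 0.69, Rora by 0.63, Prdm16 by 0.62 and Etv6 by 0.57. LMPP was the highest progenitor group for Lmo2, Prdm16 and Etv6. Without HSC GFP- array 1 the calls of Zfp521 (0.84) and Etv6 (0.52) were lost, and without array 2 those of Zfp521 (0.57) and Gata3 (0.52). Gata2, Tal1, Runx1, Lyl1 and Fli1, which act with Lmo2 in blood progenitors, had differences of 0.36, 0.18, -0.25, 0.32 and 0.34 and did not pass the test. Gata2 was read at 8.90, 8.57 and 8.83 in HSC GFP- arrays, inside the range of 6.96 to 10.16 of the other arrays.

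Of 19 HOX genes measured, 7 rose and 0 fell, and their median difference was 0.27. The list score was 0.23 to 0.35 on HSC GFP- arrays and at most 0.14 on the others, so the list as a whole did not overlap although no single HOX gene was free of overlap. Hoxa5 read 7.004, 7.85 and 8.41 in HSC GFP-, against a lowest of 5.92, a median of 6.90 and a highest of 8.01 elsewhere. Its difference, 0.94 ± 0.26 (adjusted p = 0.0309, limma), was the largest of the family and its stem cell arrays were spread widely. Hoxb4, known for expanding stem cells when added to them, read 7.44, 8.06 and 8.19 in HSC GFP-, against a lowest of 6.81, a median of 7.25 and a highest of 7.58 elsewhere, a difference of 0.69 ± 0.13 (adjusted p = 0.0011, limma). Hoxa9, a leukaemia-associated partner of Meis1, rose by 0.58, Hoxa3 by 0.60, Hoxa10 by 0.55, Hoxa6 by 0.53 and Hoxb6 by 0.42. The calls of 4 of these genes were lost when 1 stem cell array was left out. Hoxa5 had 0.90 without array 2 and 0.61 without array 3, Hoxa9 0.58 and 0.50, and Hoxb6 0.27 and 0.47, and Hoxa10 had 0.47 without array 1 and 0.52 without array 3. Hoxb5, whose reporter marks long-term stem cells in mice, read 6.13, 6.08 and 6.69 in HSC GFP- arrays, against a median of 5.58 in the others, and did not pass the test (adjusted p = 0.0563). Its mean and that of Hoxb6 were below the median of all values in HSC GFP-. HOX genes have close relatives, and shared probes cannot be told apart here.

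Genes of the stem cell surface and of adhesion held the largest share of rises of all 33 lists. Of 37 measured, 25 rose and 1 fell, and the median difference was 0.94. The 25 include Slamf1, Kit and Eng, genes of gate markers, whose levels are a check of the sort and not a finding. Without overlap were Abcg2, Procr, Adgrg1, Tgm2, Sult1a1, Esam, Tie1, Kit, Itgb3 and Fgd5. Abcg2, the pump behind the dye-excluding side population, read 9.35, 9.23 and 9.33 in HSC GFP-, against a lowest of 6.90, a median of 7.62 and a highest of 8.66 in the other arrays. Procr, the endothelial protein C receptor EPCR, read 7.68, 7.97 and 7.90 in HSC GFP-, against a lowest of 5.97, a median of 6.28 and a highest of 7.09 elsewhere. Their differences were 1.65 ± 0.20 and 1.49 ± 0.12, and in both genes the 3 stem cell arrays lay close together and well above the rest. Adgrg1, an adhesion receptor of stem cells also called GPR56, rose by 1.38 ± 0.23 and was highest elsewhere in LMPP. Esam and Tie1, both known from endothelium as well, rose by 1.07 ± 0.12 and 1.05 ± 0.09. Fgd5, whose reporter is used to mark stem cells, rose by a smaller 0.49 ± 0.09.

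Among genes of this list that overlapped with LMPP, some had larger differences and others smaller ones. Adgrl4, an adhesion receptor, read 11.74, 11.86 and 11.78 in HSC GFP-, against a lowest of 7.19, a median of 9.62 and a highest of 12.04 elsewhere, and Emcn, the sialomucin endomucin, had a difference of 1.89 ± 0.24. Vldlr, a lipoprotein receptor, rose by 1.43 ± 0.17 against the mean of the groups, but all 4 LMPP arrays, up to 9.52, lay above the 3 stem cell arrays at 8.41, 8.15 and 8.00. Alcam and Itga6, which encode CD166 and an integrin of laminin binding, rose by 1.33 and 1.21. Sele, the gene of E-selectin, was the 1 member that fell, by 0.93, and was highest in GMP GFP-. Cd48, a SLAM family gene outside the list whose protein most mouse stem cells lack, read 8.84, 8.47 and 6.46 in HSC GFP-, against a lowest of 8.56, a median of 9.95 and a highest of 10.69 in the others. It fell by 1.90 and its spread among the stem cell arrays was wide. Kit, the stem cell factor receptor and a gate marker, read 10.82, 10.94 and 10.92 in HSC GFP- arrays, against a highest of 10.78 elsewhere, so that the 3 arrays were free of overlap by 0.0354 only.

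**Figure D3:**
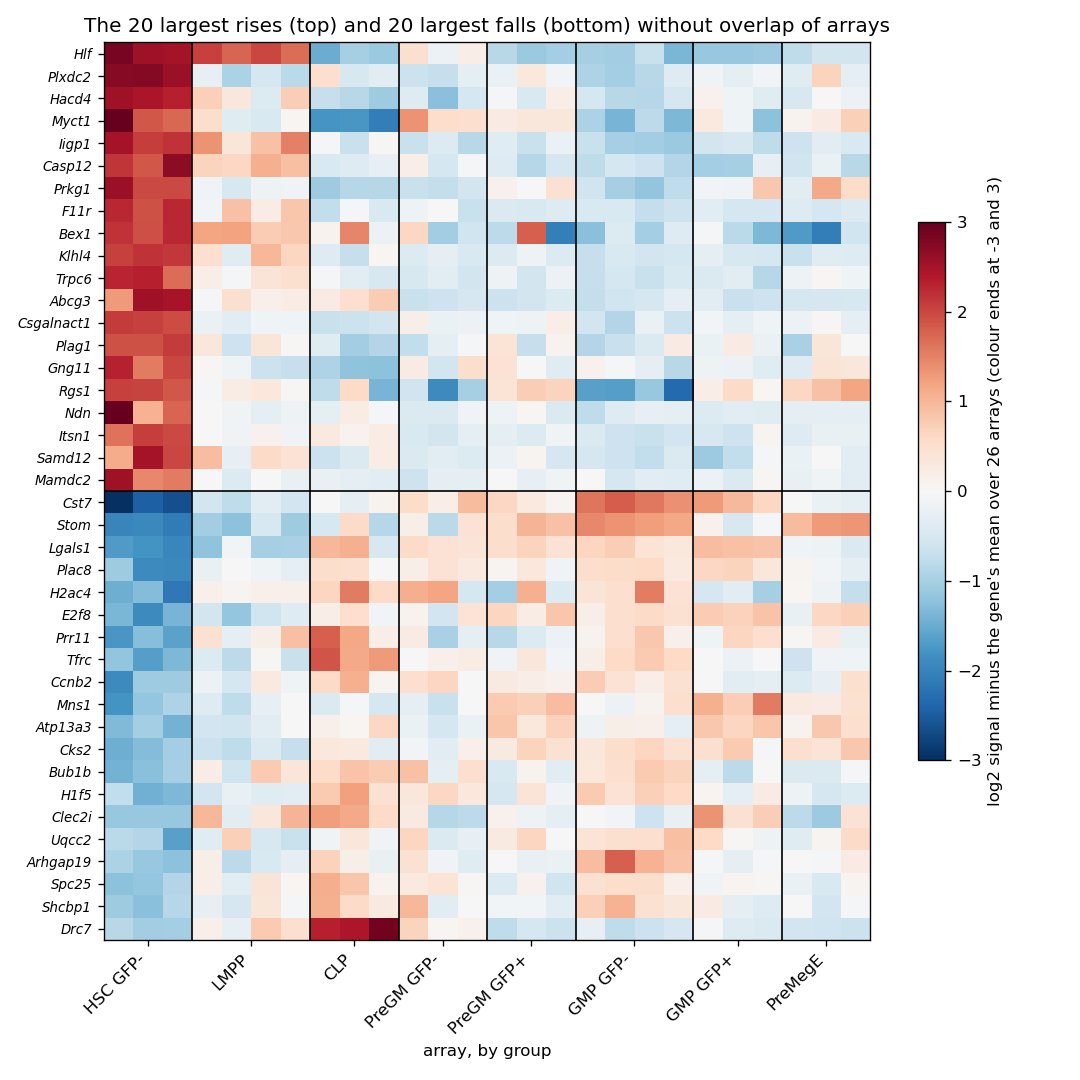
Log2 signal minus the gene's mean over the 26 arrays, for the 20 largest rises (upper block) and the 20 largest falls (lower block) among genes without overlap. Each column is 1 array, with HSC GFP- at the left. Hlf, Iigp1, Casp12 and Bex1 were next highest in LMPP, while Plxdc2 and Csgalnact1 had no progenitor group near the stem cells.

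Most of the 20 largest rises without overlap were not members of the stem cell lists. In 15 of them the progenitor mean lay below the median of all values, so that the difference was from a level not shown to exceed background, and all had a stem cell mean above it. Plxdc2, a transmembrane protein with a plexin domain, read 9.66, 9.69 and 9.50 in HSC GFP-, against a lowest of 5.91, a median of 6.60 and a highest of 7.62 in the other arrays. Its difference was 2.99 ± 0.20 (adjusted p = 8.6e-10, limma), with no progenitor group standing near the stem cells. Csgalnact1, an enzyme of chondroitin sulphate synthesis, read 8.82, 8.77 and 8.67 in HSC GFP-, against a lowest of 5.84, a median of 6.52 and a highest of 6.91 elsewhere, and Hacd4, a dehydratase of fatty acid elongation, 8.71, 8.61 and 8.50, against a lowest of 4.91, a median of 5.76 and a highest of 6.90. The 3 stem cell arrays lay within 0.15 of each other for Csgalnact1 and 0.21 for Hacd4, and the differences were 2.29 ± 0.11 and 2.78 ± 0.19.

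Other genes among the 20 encode proteins of various kinds. F11r, the junctional adhesion molecule JAM-A, read 8.51, 8.16 and 8.53 in HSC GFP-, against a lowest of 5.52, a median of 5.82 and a highest of 7.14 in the others, with LMPP nearest. Trpc6, a cation channel, read 8.53, 8.57 and 7.90 in HSC GFP-, against a lowest of 5.38, a median of 5.91 and a highest of 6.70, and Prkg1, the cGMP-dependent protein kinase, 9.41, 8.81 and 8.80, against a lowest of 5.64, a median of 6.51 and a highest of 7.95. The nearest group was LMPP for Trpc6 and PreMegE for Prkg1. Rgs1 and Gng11, a regulator and a subunit of heterotrimeric G proteins, rose by 2.19 ± 0.27 and 2.20 ± 0.22, again with PreMegE nearest. Itsn1, a scaffold of endocytosis, rose by 2.13 ± 0.11 from progenitor levels that were alike in all 7 groups, between 6.65 in GMP GFP- and 7.44 in CLP. Casp12, a caspase of the inflammatory group, rose by 2.55 ± 0.17, Klhl4, a kelch-like protein, by 2.41 ± 0.17, and Bex1, an X-linked adaptor, by 2.44 ± 0.48. Bex1 varied among the progenitors, from a mean of 5.02 in PreMegE to 7.46 in LMPP. Myct1, named as a target of Myc, read 10.72, 9.21 and 9.07 in HSC GFP-, against a lowest of 5.27, a median of 7.40 and a highest of 8.70 elsewhere, and its stem cell arrays were spread over 1.66 log2 units with array 1 highest. Abcg3, a transporter with close relatives that may share its probes, read 6.81, 8.07 and 7.99 in HSC GFP- and at most 6.28 in the other arrays. Plag1, a zinc finger factor, Samd12 and Mamdc2 completed the 20, with differences of 2.24, 2.13 and 2.09.

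Genes of cell division were the other side of the comparison. Of 29 genes of G2 and M phase, 21 fell and 0 rose, with a median difference of -0.83, against 0.00 over all genes. The list score was -1.02 to -0.66 on HSC GFP- arrays, and the lowest progenitor array, of PreMegE, was at -0.81, so that 1 PreMegE array overlapped with the stem cells. CLP and GMP GFP- were highest. Of 31 genes of S phase and DNA replication, 10 fell and 0 rose, with a median of -0.47, and the list score was -0.52 to -0.27 in HSC GFP- arrays, a range that arrays of PreMegE and GMP GFP+ shared. Ccnb2, which encodes the mitotic cyclin B2, read 8.21, 9.05 and 9.03 in HSC GFP-, against a lowest of 9.58, a median of 10.31 and a highest of 11.17 in the others. Bub1b, the spindle checkpoint protein BubR1, read 7.44, 7.60 and 7.86 in HSC GFP-, against a lowest of 8.06, a median of 9.08 and a highest of 9.75 elsewhere. Both lay below every other array, and their differences were -1.52 ± 0.20 and -1.36 ± 0.22 (adjusted p = 2.14e-05 and 0.000223, limma).

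Promoters of these genes are printed because G2 and M genes are known to be driven through CCAAT boxes, bound by NF-Y, and cell cycle genes homology regions, bound by the DREAM and B-Myb complexes. The windows run from 250 bases before to 30 bases after the RefSeq transcript start in GRCm38.p6, on the gene's strand, 5′ to 3′. Capitals mark CCAAT and TTTGAA, or their reverse complements ATTGG and TTCAAA. The Ccnb2 window is chr9:70421525-70421804 on the minus strand and that of Bub1b is chr2:118597961-118598240 on the plus strand.
Ccnb2: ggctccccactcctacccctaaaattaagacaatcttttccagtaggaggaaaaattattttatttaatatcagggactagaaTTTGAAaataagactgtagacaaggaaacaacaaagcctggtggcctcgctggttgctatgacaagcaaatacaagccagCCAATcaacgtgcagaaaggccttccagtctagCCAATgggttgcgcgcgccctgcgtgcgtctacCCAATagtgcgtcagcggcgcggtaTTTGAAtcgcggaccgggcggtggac
Bub1b: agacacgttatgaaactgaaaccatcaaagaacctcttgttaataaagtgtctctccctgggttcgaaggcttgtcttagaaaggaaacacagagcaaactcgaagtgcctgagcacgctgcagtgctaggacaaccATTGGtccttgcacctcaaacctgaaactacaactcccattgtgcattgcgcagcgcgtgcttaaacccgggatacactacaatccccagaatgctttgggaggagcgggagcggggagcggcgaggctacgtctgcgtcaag
The Ccnb2 window holds 3 CCAAT boxes spaced evenly at -87, -54 and -21 from the start, and TTTGAA at -167 and at 5. The Bub1b window holds 1 box, read as ATTGG at -113, and no TTTGAA. Over the 15614 genes with a promoter in the table, CCAAT was found on either strand in 37.3% and TTTGAA in 14.6%. Among the G2 and M genes with a promoter the shares were 20 of 24 (83.3%) and 16 of 24 (66.7%). In the 56 promoters of genes below every other array they were 55.4% and 28.6%, and in the 141 of genes above every other array 29.8% and 14.9%. A match is a description of the letters and not a shown binding site.

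Some of the other falls without overlap were also genes known from the cell cycle. E2f8, an atypical E2F repressor of the cell cycle, read 8.21, 7.67 and 8.20 in HSC GFP-, against a lowest of 8.42, a median of 9.99 and a highest of 10.43 in the other arrays, with LMPP lowest among the progenitors. Cks2, a subunit of cyclin-dependent kinases, fell by 1.45, Spc25, of the kinetochore, by 1.22, Prr11 by 1.72 and Shcbp1 by 1.19. Fen1, the flap endonuclease of DNA replication, read 7.11, 6.72 and 7.13 in HSC GFP-, against a lowest of 7.24, a median of 7.93 and a highest of 8.80 elsewhere, and was the 1 S phase gene without overlap. Other S phase calls depended on single arrays. Prim1 (-0.71), Rrm2 (-0.91), Mcm2 (-0.64) and Rfc4 (-0.63) were not called without HSC GFP- array 3. Rrm2 (-0.47), Mcm2 (-0.69), Orc1 (-0.75) and Rfc4 (-0.64) were not called without array 2, nor Orc1 (-0.52) without array 1. Leaving out GMP GFP- also ended the calls of Rrm2, Mcm2, Orc1 and Rfc4. Ccna2, Cenpe and Plk1 fell by 1.25, 1.29 and 1.44 and overlapped with some progenitor arrays, and the call of Plk1 was lost without HSC GFP- array 1 (-0.98). Kif11, Nuf2 and Kif23, with differences of -0.96, -0.87 and -0.82, did not pass the test. H1f5 and H2ac4, a linker and a core histone gene with close relatives that may share probes, fell by 1.34 and 1.83. Arhgap19, a GTPase-activating protein of cell division, fell by 1.23. The stem cell means of H2ac4, Arhgap19 and Plk1 were under the median of all values.

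Among 29 genes of cell cycle inhibition and quiescence, 6 rose (20.7%) and 1 fell (3.45%), with a median of 0.03. The shares over all genes were 3.5% and 2.76%. Cdk6, a G1 kinase known to govern exit from rest in human stem cells, was the gene that fell. It read 10.46, 10.17 and 10.30 in HSC GFP-, against a lowest of 10.76, a median of 11.18 and a highest of 11.79 in the others, a difference of -0.95 ± 0.13 without overlap (adjusted p = 4.13e-05, limma). Cdkn1c, the inhibitor p57 of imprinted expression, read 7.95, 6.98 and 7.07 in HSC GFP-, against a lowest of 6.19, a median of 6.55 and a highest of 7.01 elsewhere, and rose by 0.75 with 1 array just inside the progenitor range. Txnip, a redox and glucose regulator, rose by 1.27, Sesn3, a stress-induced sestrin, by 0.87 and Rbl2, the pocket protein p130, by 0.57. Mycn, a Myc family gene, rose by 1.03 ± 0.12 and was without overlap. Rb1 and Cdkn2c, with -0.49 and -0.59, did not pass the test. The calls of Sesn3 and Rbl2 were lost without array 3 (0.64) and array 1 (0.49) of HSC GFP-.

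**Figure D4:**
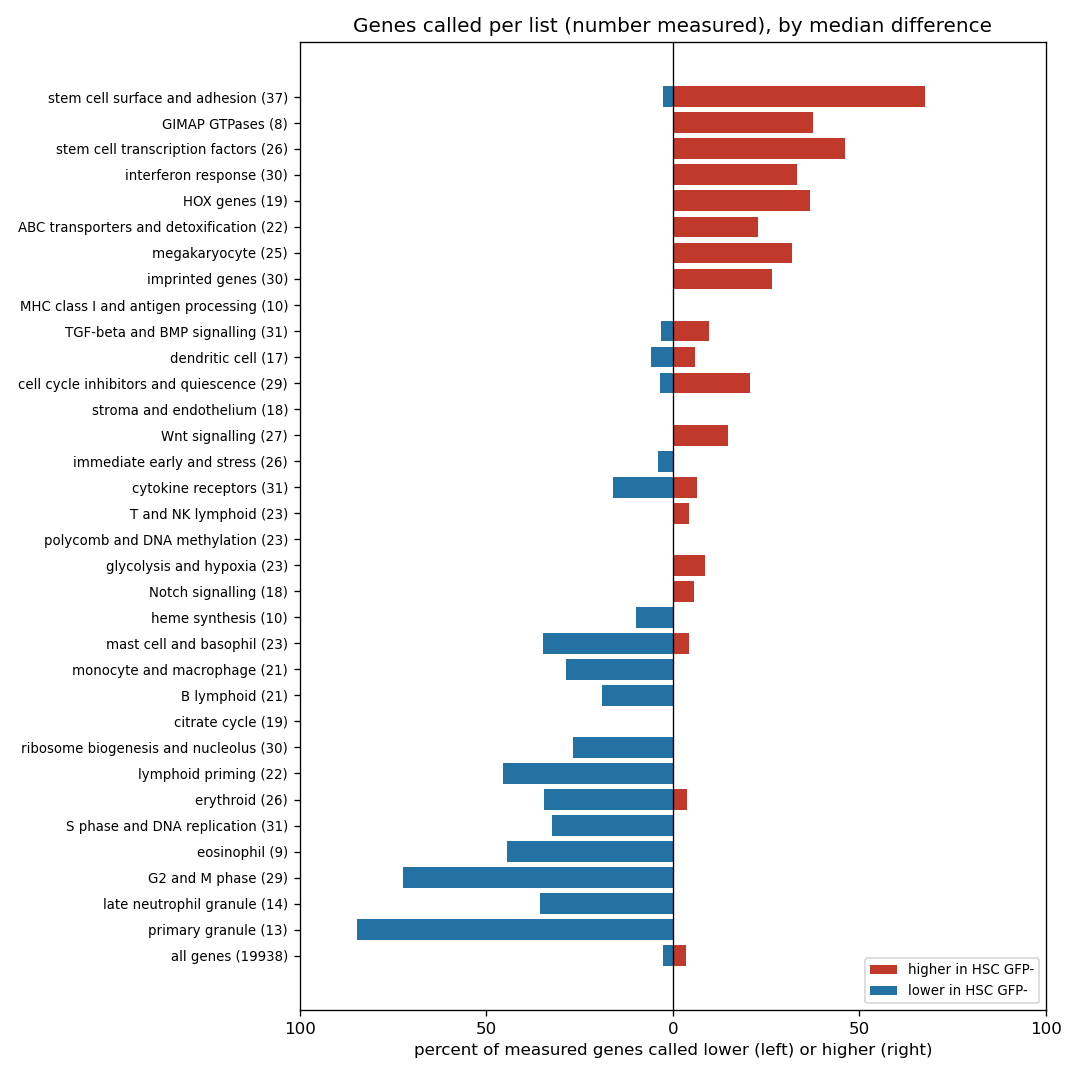
Percent of the measured genes of each of 33 lists that were called higher (red, right) or lower (blue, left) in HSC GFP-, ordered by the median difference, with all 19938 genes at the bottom (3.5% and 2.76%). Surface and adhesion genes have the largest red share, 67.6%, and primary granule genes the largest blue share, 84.6%. The red share counts the gate marker genes Slamf1, Kit and Eng.

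Of 30 genes of ribosome biogenesis and the nucleolus, 8 fell and 0 rose, with a median of -0.29. The falls were 26.7% of the list, against 2.76% of all genes. Nip7 and Nhp2, a ribosome assembly factor and a subunit of box H/ACA particles, fell by 0.94 and 0.88. Gar1, another subunit of those particles, fell by 0.52 and was below every other array. Noc4l, Nolc1 and Wdr12 also fell. The Noc4l call was lost without any 1 of the 3 stem cell arrays (-0.70 to -0.58). That of Nolc1 was lost without array 2 (-0.55) or array 3 (-0.55), and that of Wdr12 without array 3 (-0.30). Leaving out GMP GFP- also ended the calls of Noc4l, Nolc1 and Wdr12. Of 19 citrate cycle genes 0 were called by limma, with a median of -0.24, and 9 had an unadjusted p under 0.05. Slc2a3 and Slc2a1, which encode the glucose transporters GLUT3 and GLUT1, rose by 0.85 and 0.74 and were the only called genes among 23 of glycolysis and hypoxia. That is 8.7% of the list, against 3.5% of all genes called higher. Ldha and Pfkp, with -0.43 and -0.53, did not pass the test. Uqcc2, an assembly factor of respiratory complex III, was below every other array, at 8.12, 8.05 and 7.29 in HSC GFP- and at least 8.26 elsewhere. Tfrc, the transferrin receptor through which dividing cells take up iron, read 7.70, 7.23 and 7.53 in HSC GFP-, against a lowest of 8.09, a median of 8.90 and a highest of 10.77 in the others, and fell by 1.59. Atp13a3, a transport ATPase, fell by 1.46. Gar1 (-0.41), Uqcc2 (-0.97) and Slc2a1 (0.67) were not called without HSC GFP- array 3, Slc2a1 (0.68) not without array 1 and Slc2a3 (0.61) not without array 2.

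Genes of neutrophil granules were lower in stem cells than in the mean of the progenitor groups. Of 13 primary granule genes 11 fell and 0 rose, with a median of -1.52. Mpo, myeloperoxidase, read 9.47, 8.10 and 8.75 in HSC GFP-, against a lowest of 9.04, a median of 11.52 and a highest of 13.43 elsewhere, and fell by 2.95. Mpo signal in HSC GFP- was thus well above the median of all values, and PreMegE, at a mean of 9.46, was the nearest group. Ctsg and Ms4a3, a granule protease and a marker of granulocyte and monocyte progenitors, fell by 2.84 and 2.61. Of 14 late neutrophil genes 5 fell, among them S100a8, which read 5.86, 5.44 and 5.40 in HSC GFP-, against a lowest of 5.57, a median of 8.96 and a highest of 12.31 in the others. The late neutrophil list score was -1.22 to -1.16 in HSC GFP- arrays, within the LMPP range of -1.26 to -0.54. The median difference of that list was -0.06 against LMPP and against CLP, and from -3.37 (GMP GFP-) to -0.47 (PreGM GFP+) against the other groups. The list score of primary granule genes was -1.54 to -0.90 in HSC GFP- arrays and reached 2.33 in GMP GFP-, and arrays of PreMegE and CLP lay within the stem cell range. Csf1r, the receptor of macrophage colony-stimulating factor, fell by 1.02 and was below every other array at a level under the median of all values. In the monocyte and macrophage list, 6 of 21 measured genes fell and 0 rose, and the stem cell means of all 6 were under the median of all values, as were those of S100a8 and Ms4a3. The monocyte list was not at its lowest in stem cells. Its score was -0.44 to -0.43 in HSC GFP- arrays, -0.79 to -0.76 in PreGM GFP+ and -0.74 to -0.43 in PreMegE, and its median difference was 0.12 against PreGM GFP+, 0.02 against LMPP and 0.01 against PreMegE.

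The deepest fall without overlap was that of Cst7, cystatin F, an inhibitor of granule and lysosomal cathepsins. It read 5.82, 7.40 and 7.21 in HSC GFP-, against a lowest of 9.08, a median of 10.05 and a highest of 11.67 in the others, so that each of the 7 progenitor groups stood above it (difference -3.41 ± 0.21, adjusted p = 3.75e-10, limma). Plac8, a gene of myeloid and lymphoid progenitors, read 10.53, 9.69 and 9.65 in HSC GFP-, against a lowest of 11.30, a median of 11.88 and a highest of 12.26 elsewhere. Lgals1, galectin-1, read 9.88, 9.78 and 9.62 in HSC GFP-, against a lowest of 10.35, a median of 11.99 and a highest of 12.63, and Stom, the membrane protein stomatin, 6.48, 6.53 and 6.36, against a lowest of 7.24, a median of 8.90 and a highest of 9.91. For all 4 genes the lowest progenitor group was LMPP. Mns1, Clec2i and Drc7 fell by 1.49, 1.29 and 1.11, and Drc7 was highest in CLP, at a mean of 9.44, and lowest in PreGM GFP+, at 6.25. The stem cell means of Stom, Clec2i and Drc7 were under the median of all values.

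The lymphoid lists differed in their counts. Of 22 genes of lymphoid priming 10 fell and 0 rose, with a median of -0.30. Of 23 T and NK lymphoid genes 1, Gata3, rose and 0 fell, with a median of -0.02. That 1 rise is 4.35% of the T and NK list, against 3.5% of all genes, and was not called without HSC GFP- array 2 (0.52). Dntt, the terminal transferase of antigen receptor joining, read 5.66, 5.90 and 5.43 in HSC GFP-, against a lowest of 5.26, a median of 5.86 and a highest of 12.24 elsewhere. It fell by 2.30 to a level under the median of all values, and the stem cell arrays overlapped with those of PreGM GFP+, both GMP groups and PreMegE. Satb1, a chromatin organiser of lymphoid cells, fell by 1.73, Cd52 by 1.76 and Cd53 by 1.71. The list score was -0.53 to -0.40 in HSC GFP- arrays and -0.55 to -0.46 in GMP GFP+ arrays, which lay partly below the stem cells. PreGM GFP+ and PreMegE were lower still. The list's median difference was -1.31 against CLP and -0.69 against LMPP, and between -0.20 and 0.10 against the other groups. Of 21 B lymphoid genes 4 fell, Rag1, Blnk, Rag2 and Ly6d, all with CLP as the highest group. Without CLP all 4 calls were lost, at differences of -0.20 for Rag1, -0.18 for Blnk, -0.29 for Rag2 and -0.02 for Ly6d. Leaving out 1 stem cell array also ended the call of Rag1 (-0.76 without array 2), of Ly6d (-0.49 without array 2 and -0.43 without array 3) and, for any of the 3 arrays, of Blnk (-0.78 to -0.65). H2-Aa, an MHC class II gene of dendritic and B cells, rose by 1.64 ± 0.36, and its stem cell arrays read 9.99, 7.64 and 8.63. That is a spread of 2.35 log2 units with array 1 highest, and without that array the difference was 1.02 and not called (adjusted p = 0.147, limma). The part of other cells in it was not tested. Cd74, which pairs with it, read 7.86, 6.73 and 6.83 in HSC GFP- and did not pass the test.

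Genes of the Gata1-dependent lineages split. Gata1 itself, gated through its reporter, read 6.21, 6.38 and 6.36 in HSC GFP-, against a lowest of 6.29, a median of 6.69 and a highest of 8.74 in the others, and fell by 0.99 to a level under the median of all values, with PreGM GFP+ highest. Of 26 erythroid genes 9 fell (34.6%) and 1 rose (3.85%), against 2.76% and 3.5% of all genes, with a median difference of -0.38. The erythroid median was -1.20 against PreGM GFP+, -0.71 against PreMegE and -0.58 against GMP GFP+, but 0.08 against LMPP, 0.07 against CLP, 0.06 against GMP GFP- and 0.03 against PreGM GFP-. Its list score was -0.35 to -0.26 in HSC GFP- arrays, and every LMPP and CLP array but 1 of LMPP lay below that range. Car1, a carbonic anhydrase of erythroid cells, fell by 2.42, whereas Car2, another carbonic anhydrase, read 10.40, 10.57 and 10.55 in HSC GFP-, against a lowest of 5.80, a median of 8.65 and a highest of 10.23 elsewhere. Car2 was above every other array, a difference of 1.96 ± 0.19 (adjusted p = 3.42e-07, limma). Of 23 mast cell and basophil genes 8 fell (34.8%) and 1 rose (4.35%). The median difference of this list was -0.83 against GMP GFP+, -0.20 against PreGM GFP+ and -0.08 against PreMegE, but 0.01 to 0.06 against the other groups. Its list score was -0.36 to -0.24 in HSC GFP- arrays, above every LMPP and CLP array. Mcpt8 and Ms4a2, a basophil protease and a subunit of the IgE receptor, fell by 1.88 and 1.41, and Slc18a2, the vesicular monoamine transporter, rose by 1.33. Of 9 eosinophil genes 4 fell (44.4%, against 2.76% of all genes), among them Prg2, the major basic protein, by 1.38. The eosinophil median was -3.365 against GMP GFP+ and -0.27 to -0.01 against the other groups. The Prg2 call was lost without any 1 of the 3 stem cell arrays (-1.39 to -1.35) and without GMP GFP+ (-0.47). Those of the other fallen eosinophil genes, Rnase12 (-0.73), Prg3 (-0.31) and Epx (-0.02), were also lost without GMP GFP+. Rnase12 was not called without HSC GFP- array 2 (-1.53) or array 3 (-1.39), nor Epx without array 2 (-0.37). The stem cell means of Car1, Mcpt8, Ms4a2 and Prg2 were under the median of all values.

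Of 25 megakaryocyte genes measured, 8 rose and 0 fell, with a median of 0.14. The list score was 0.21 to 0.29 in HSC GFP- arrays, 0.27 to 0.30 in PreGM GFP+ and 0.32 to 0.58 in PreMegE, so that PreGM GFP+ was level with the stem cells and PreMegE above them. The median difference was 0.03 against PreGM GFP+, -0.04 against PreMegE and 0.21 to 0.54 against the other 5 groups. Pf4, platelet factor 4, read 6.73, 7.60 and 5.998 in HSC GFP-, against a lowest of 4.35, a median of 4.76 and a highest of 8.37 in the others, a difference of 1.45 ± 0.38 (adjusted p = 0.0188, limma). PreMegE was above the stem cells in this gene, and the stem cell arrays were spread over 1.61 log2 units. P2rx1, a platelet ATP receptor, rose by 0.87, Nfe2, a factor of platelet formation, by 0.72 and Itgb3, the integrin subunit of fibrinogen binding, by 0.62. Gp9 and Itga2b, with 0.19 and 0.16, did not pass the test. Without HSC GFP- array 1 the calls of P2rx1 (0.49), Nfe2 (0.47) and Pf4 (1.48) were lost, and that of Pf4 also without array 2 (1.04). Without CLP the differences of Nfe2 and Pf4 were 0.40 and 1.32, and without LMPP or GMP GFP- that of Pf4 was 1.34, none of them called.

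**Figure D5:**
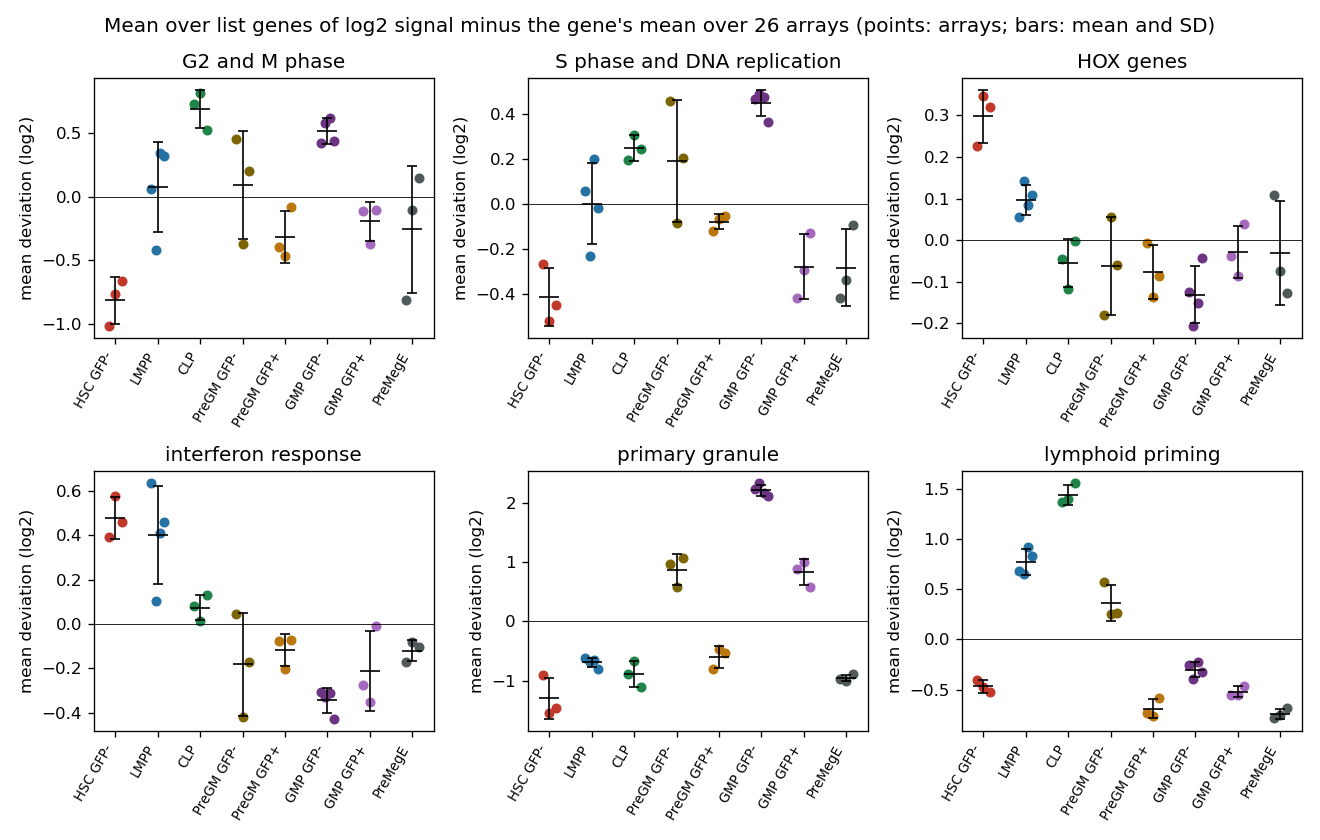
Mean over the genes of 6 lists of the log2 signal minus the gene's mean over 26 arrays, per array and by group, with HSC GFP- at the left; bars give the group mean and SD. HSC GFP- arrays are at -1.02 to -0.66 for G2 and M phase and at 0.23 to 0.35 for HOX genes, and share the range of LMPP for the interferon list.

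Of 30 interferon response genes measured, 10 rose and 0 fell, with a median of 0.41. The list score was 0.39 to 0.58 in HSC GFP- arrays and 0.10 to 0.64 in LMPP arrays, and against LMPP alone the list's median difference was -0.05. Iigp1, an interferon-induced GTPase, read 8.78, 8.36 and 8.45 in HSC GFP-, against a lowest of 5.18, a median of 5.82 and a highest of 7.80 elsewhere, a difference of 2.56 ± 0.17 (adjusted p = 1.19e-09, limma). Ifih1, the RNA sensor MDA5, read 9.31, 8.78 and 8.83 in HSC GFP-, against a lowest of 6.79, a median of 7.90 and a highest of 8.40, and Gbp7, a guanylate-binding protein, 9.39, 9.17 and 9.21, against a lowest of 6.93, a median of 8.26 and a highest of 8.92. These 3 were without overlap, and guanylate-binding proteins have close relatives that may share probes. The call of Gbp7 was lost without any 1 of the 3 stem cell arrays (1.005 to 1.115) and without GMP GFP- (1.03). Gbp9, Oasl2 and Ifit1 rose by 1.26, 1.19 and 0.99 and overlapped, and Ifit1 was not called without HSC GFP- array 1 (0.86) or array 2 (0.95). Parp14, Ifit3 and Gbp8, with 0.89, 0.70 and 0.69, did not pass the test. Ifitm1 and Ifitm3, membrane proteins of antiviral defence, were among the strongest signals, at means of 12.10 and 12.12, and rose by 1.01 and 0.81. Of 10 genes of MHC class I and antigen processing 0 were called by limma, and 2 had an unadjusted p under 0.05.

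The promoters of Gbp7 and Ifit1 are printed because the list is defined by interferon-driven transcription, which acts through the interferon-stimulated response element. Capitals mark a pair of GAAA blocks with 2 bases (NN) between them, found here on the other strand as a pair of TTTC blocks. The Gbp7 window is chr3:142530086-142530365 and the Ifit1 window chr19:34640639-34640918, both on the plus strand of GRCm38.p6 and from RefSeq.
Gbp7: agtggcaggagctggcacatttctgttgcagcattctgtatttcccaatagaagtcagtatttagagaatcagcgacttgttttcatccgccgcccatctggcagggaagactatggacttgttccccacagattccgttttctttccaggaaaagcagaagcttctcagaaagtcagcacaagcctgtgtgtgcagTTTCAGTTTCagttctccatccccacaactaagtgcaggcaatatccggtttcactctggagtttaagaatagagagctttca
Ifit1: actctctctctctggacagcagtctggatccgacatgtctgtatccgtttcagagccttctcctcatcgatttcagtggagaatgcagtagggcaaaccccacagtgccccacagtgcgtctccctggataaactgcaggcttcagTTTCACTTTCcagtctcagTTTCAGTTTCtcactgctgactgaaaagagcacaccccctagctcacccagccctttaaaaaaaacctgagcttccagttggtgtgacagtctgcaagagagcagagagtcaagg
The Gbp7 window holds 1 match, at -53 to -44 from the start, and that of Ifit1 holds 2, at -104 to -95 and at -85 to -76. The motif was found in 13 of 20 interferon list promoters (65%), against 3.21% of all promoters, and in 4.96% of those of the 141 genes above every other array. The windows of Ifih1 and Oasl2 do not hold these letters.

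Of 8 GIMAP genes, GTPases of lymphocyte survival, 3 rose and 0 fell. The list score was 0.46 to 0.79 in HSC GFP- arrays, 0.60 to 1.30 in CLP, 0.13 to 0.58 in LMPP and -1.08 to -0.84 in GMP GFP-. The CLP arrays thus shared or exceeded the stem cell range. Gimap6 read 9.90, 10.56 and 10.79 in HSC GFP-, against a lowest of 5.94, a median of 8.26 and a highest of 10.40 elsewhere, with CLP nearest, and Gimap1 read 9.53, 9.63 and 9.35 in HSC GFP-, against a lowest of 6.36, a median of 8.22 and a highest of 9.09. Gimap1 was without overlap, and its difference was 1.45 ± 0.22. Gimap9, at -0.38, did not pass the test, and the members of this family are near relatives of each other.

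Receptors and effectors of stem cell signalling gave fewer calls. Of 31 genes of TGF-beta and BMP signalling 3 rose (9.68%) and 1 fell (3.23%), against 3.5% and 2.76% of all genes. Bmpr2, the type II BMP receptor, read 9.98, 9.71 and 10.16 in HSC GFP-, against a lowest of 8.18, a median of 8.83 and a highest of 9.46 elsewhere, and was without overlap, at a difference of 1.12 ± 0.19. Eng (CD105, absent from the PreGM and PreMegE gates) and Acvr2a, an accessory and a type II receptor of the family, rose by 0.99 and 0.96, and Id2, a target of the pathway, fell by 1.12 to a mean under the median of all values. Without array 2 of HSC GFP- Acvr2a (0.65) and Id2 (-1.002) were not called, nor was Id2 without array 1 (-1.10) or without GMP GFP+ (-0.69). Of 27 Wnt genes 4 rose (14.8%). Ryk, a Wnt co-receptor, and Sfrp1, a secreted Wnt inhibitor, were without overlap at 1.16 ± 0.10 and 0.85 ± 0.11, and Fzd3 and Tcf7l2, a receptor and a nuclear effector, rose by 1.11 and 1.09. The stem cell means of Ryk and Fzd3 were just under the median of all values. Of 18 Notch genes, Mfng alone was called, at 0.69, which is 5.56% of the list against 3.5% of all genes, and without HSC GFP- array 1 its difference was 0.30 and not called (adjusted p = 0.324, limma). Of 31 cytokine receptors 2 rose (6.45%) and 5 fell (16.1%). Of these, Kit, which rose, and Il7r, which fell, are gate markers and no finding, and without CLP, the group gated on it, Il7r was at -0.24 and not called. The other risen gene was Csf3r, the G-CSF receptor, at 0.82. Ifngr1, a receptor of interferon gamma, fell by 0.84 and was not called without HSC GFP- array 1 (-0.62), array 2 (-0.81) or the GMP GFP- group (-0.76).

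Detoxification and imprinted genes gave rises only. Of 22 ABC transporter and detoxification genes 5 rose (22.7%, against 3.5% of all genes). Aldh1a1, an aldehyde dehydrogenase used to mark stem cells, read 8.65, 9.55 and 9.12 in HSC GFP-, against a lowest of 5.78, a median of 6.34 and a highest of 9.59 in the others, with PreMegE nearest. Its difference was 2.18 ± 0.32, and LMPP was the lowest group. Sult1a1, a sulphotransferase, rose by 1.08 ± 0.14 without overlap. Of 30 imprinted genes 8 rose (26.7%, against 3.5% of all genes) and 0 fell, with a median of 0.14. Besides Ndn and Cdkn1c these included Ppp1r9a, Sgce and Grb10, a growth factor receptor adaptor, at 1.18, 1.04 and 0.92, and the noncoding Airn at 0.86. Igf2r, the gene next to Airn, had a difference of 0.42 and did not pass the test.

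The same model gave a contrast with each progenitor group on its own. These 7 contrasts share the HSC GFP- arrays and are set side by side without a count of shared genes. Against LMPP 1.28% of genes were higher and 1.03% lower in HSC GFP-, and against CLP 3.11% and 2.99%. Against PreGM GFP- the shares were 2.38% higher and 2.38% lower, and against PreGM GFP+ 2.13% and 1.5%. GMP GFP- gave the most calls, 5.81% higher and 7.1% lower in HSC GFP-, and GMP GFP+ 2.21% and 1.89%. Against PreMegE 2.19% were higher and 0.988% lower. The count of lower genes was thus smallest against PreMegE, 197, and that of higher genes smallest against LMPP, 256.

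The gene lists differed between these contrasts in size. G2 and M genes had a median difference of -0.89 against LMPP, -1.47 against CLP, -0.87 against PreGM GFP-, -0.46 against PreGM GFP+, -1.27 against GMP GFP-, -0.57 against GMP GFP+ and -0.57 against PreMegE. All 7 were negative, while the medians of all genes lay between -0.03 and 0.05. Primary granule genes ran from -3.04 against GMP GFP- to -0.17 against PreMegE, and lymphoid priming genes from -1.31 against CLP to 0.10 against PreGM GFP+. Surface and adhesion genes were at 0.57 against LMPP and 1.16 against CLP, the ends of their range. For single genes, Hlf differed by 0.76 from LMPP and by 3.82 from CLP, while Plxdc2 differed by 3.31 from LMPP and 2.66 from PreMegE, its nearest group. Slamf1 differed by 2.25 from LMPP and by -0.02 from PreMegE. Whether the lists' shifts differ between contrasts was not tested.

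The genes without overlap were also described by features that the comparison did not use. The median genomic span was 49.0 kb for the 179 genes above every other array and 15.7 kb for the 66 below, against 17.7 kb over all genes. On the X chromosome lay 12 of the 179 (6.7%) and 3 of the 66 (4.55%), against 3.71% of all genes. For the 66 genes both features were thus near those of all genes. These are descriptions of the sets, and no test was made of them.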

How the data were processed

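Gene expression was measured on 26 Mouse Gene 1.1 ST arrays of sorted mouse bone marrow cells. The authors deposited a log2 signal for each probe set on each array, made with RMA and oligo, per the submitters' processing notes, which give no versions or log base; base 2 was taken from the range of the values. No raw intensities were used, so background could not be rechecked. Of 35556 probe sets, 21789 name 1 gene in an annotation made for another version of the array, 1621 name several and 12146 none; the last 2 kinds were left out, and 21698 were matched to RefSeq records. Where a gene had several probe sets, as 999 did, that of the highest mean was kept, leaving 19938 genes. Symbols not among them are not analysed here.

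A model with 1 coefficient for each of the 8 groups was fitted to all arrays in limma 3.58.1 under R 4.3.3 with empirical Bayes moderation, and p-values were adjusted (Benjamini-Hochberg) over the 19938 genes. Genes were called at an adjusted p under 0.05. Named are the 20 largest rises and falls among called genes without overlap, up to 6 called and 3 other genes per list, every stem cell factor, HOX, surface, sort and sex-linked gene, cell type markers, and 3 genes each way outside the no-overlap rule by 1 array; model and clone identifiers, small RNAs, olfactory receptors and receptor segments were passed over. Sgce and Npc2 were named for their gaps after their values were seen. The comparison and the gene lists were chosen with earlier results of these data known. Promoter windows came from RefSeq (GRCm38.p6), and the 3 motifs shown were kept after the counts of several had been seen; 54 promoters hold overlapping matches of different motifs.

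Arrays were not paired by replicate number in the main model. Same-numbered arrays of different groups deviated together with a median correlation of 0.03 (85 pairs, from -0.26 to 0.33), against -0.01 for other pairs. The Y-linked mean was lower in array 2 than in array 3 of LMPP (5.77 and 7.73), CLP (5.86 and 7.19) and the PreGM and GMP groups. It was higher in array 2 than in array 3 of PreMegE (7.29 and 6.35) and HSC GFP- (7.66 and 7.07). Whether same-numbered arrays shared a pool of animals or a sort was not tested. Alternatives left out each array or group, weighted groups by their arrays, renormalized or centred the arrays, dropped dim genes, averaged probe sets, weighted arrays, changed the prior, or added Y-linked genes or replicate numbers to the model.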

Additional observations from a re-analysis of the deposited data

Results flagged for a closer look

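In the 4-array groups, 86 sets of values of the named genes were searched for 1 array far from the other 3, a search in which chance alone flags about 5% of sets, and 3 were found. Prkg1 read 6.34 in LMPP array 2, against 6.68, 6.66 and 6.70 in the other LMPP arrays. H2ac4 read 7.37 in LMPP array 2, against 7.44, 7.45 and 7.44 in the others, a gap that is small in size. In GMP GFP- array 3, H2ac4 read 8.82, against 7.68, 7.79 and 7.73 in the others. All 3 lie on the progenitor side, and the HSC GFP- group, with 3 arrays, could not be searched in this way.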

How the results depend on the processing

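Of the 40 genes named by size, 37 were called in all 42 alternatives and 0 turned direction. Clec2i (adjusted p = 0.0888) and Drc7 (0.456) were not called against a plain mean over the 23 other arrays, and Uqcc2 (0.0585) was not called without HSC GFP- array 3. Of all 191 called genes named, 82 were called in every alternative and 0 turned direction. Leaving out 1 array gave 494 to 747 higher and 352 to 662 lower genes, and 178 to 275 above and 65 to 148 below every other array. The lowest count of lower genes came without HSC GFP- array 3. Without HSC GFP- array 1 the sets above and below held 275 and 148 genes, without array 2 228 and 129 and without array 3 255 and 110, since fewer stem cell arrays then have to clear the rest. The plain mean over 23 arrays, whose spread includes the differences between progenitor groups, gave 373 higher and 144 lower genes. Without the GMP GFP- group 357 genes were lower, and without LMPP 273 lay above and 100 below every other array. Array weights gave 844 lower genes, and the cause was not tested. With the replicate block the counts were 685 higher, 568 lower, 177 above and 66 below. Renormalizing by quantiles gave 804 and 569, and centring arrays 645 and 584, which moved the median of all genes by at most 0.02. With 3 stem cell arrays and no background probes used, small differences and signals under the median of all values cannot be resolved.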

Other observations

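Of 23 genes of polycomb and DNA methylation 0 were called by limma, with a median difference of -0.02, and 6 had an unadjusted p under 0.05. Kmt2a, a histone methyltransferase, read 10.47, 10.53 and 10.75 in HSC GFP- arrays, a difference of 0.68 (adjusted p = 0.0597), and Ezh2, the polycomb methyltransferase, had a difference of -0.49 (adjusted p = 0.0655). Of 26 immediate early and stress genes, Gadd45b alone was called, and it fell by 0.60. That is 3.85% of the list, against 2.76% of all genes called lower. The Gadd45b call was lost without any 1 of the 3 stem cell arrays (-0.64 to -0.55) and without GMP GFP- (-0.37). Dusp1, Zfp36 and Jun, with differences of 0.90, 0.64 and 0.60, did not pass the test. Heme synthesis genes gave 1 call in 10, or 10%, against 2.76% of all genes called lower. The call was that of Alas1, which fell by 0.93 and was highest in GMP GFP-. Without GMP GFP- its difference was -0.48 and not called. Among the sort markers Cd34 rose by 0.84, with LMPP highest among the progenitors. The Cd34 call was lost without HSC GFP- array 1 (0.73) or array 2 (0.87), and without the PreMegE (0.48) or PreGM GFP+ (0.70) group.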
